A study of Mus musculus with 7 samples.

Results

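The peaks described here lie at the genes of 9 transcription factors that steer helper T cell lineages: Tbx21, Eomes, Gata3, Rora, Ahr, Bcl6, Runx1, Runx3 and Zbtb7b. A peak, an interval of open chromatin in the deposited table, was taken where it overlapped the gene or lay within 100000 bp of it with that gene as the nearest protein-coding gene. The rule used position only and gave 117 of the 50213 peaks of the table, 73 overlapping a gene and 44 outside it. None of the 117 touched a second protein-coding gene. The assay was ATAC-seq, where a transposase cuts and tags accessible DNA, and the cells were regulatory T (Treg) cells sorted from mouse spleens.

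There were 3 libraries of Opa1 KO Treg cells (Foxp3CreOpa1fl/fl, in which Cre driven from Foxp3 deletes Opa1, a fusion GTPase of the inner mitochondrial membrane, in Foxp3-expressing cells) and 4 of WT Treg cells (Foxp3Cre). All came from mixed bone marrow chimeras made at a 1:1 ratio with CD45.1+ marrow, and cells were sorted as positive for CD4, CD45.2 and Foxp3-YFP and negative for CD45.1. KO cells therefore developed beside CD45.1+ cells of normal genotype, and WT cells carried the same Cre. For the hosts, neither strain, age nor remaining cells are given in the sources used. The library total in peaks was 3384325, 1658436 and 1948041 counts in KO replicates 1 to 3, against 2134586, 1534394, 1706750 and 1951574 in WT replicates 1 to 4. KO replicate 1 had the highest total. WT replicates 2 and 3 were the closest pair of a genotype. A chi-square test of their halved counts found no difference beyond sampling noise over 36418 peaks but a small one over the 11332 most abundant, so whether they are 1 library deposited again is unsettled. Their mean entered each mean ± SD as 1 sample, so that n = 3 for both genotypes. Where these 2 libraries differ, that can make the WT SD smaller than over all 4 WT libraries. Nothing in the labels says that libraries came from separate animals, so p-values measure the spread between these libraries, which may be technical. The tests kept all 7 libraries, and p-values would overstate the replication if these were 1 library. The peaks of Opa1 itself, on chromosome 16 as Bcl6 and Runx1 are, summed to 33.3, 29.1 and 42.6 CPM in KO and 36.8, 33.8, 37.3 and 37.9 CPM in WT, and peak counts do not check whether its floxed part was lost.

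Each of these factors is known for setting or holding a T cell fate. T-bet, the product of Tbx21, drives the Th1 fate, GATA3 the Th2 fate, RORα takes part with RORγt in the Th17 fate, and BCL6 drives follicular helper cells. Runx1 and Runx3 are the DNA-binding partners of Cbfβ, and Zbtb7b encodes ThPOK, which commits thymocytes to the CD4 lineage and opposes Runx3. Treg cells can express many of them, and RUNX1 is known to bind DNA together with FOXP3.

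Sequences at annotated transcript starts are shown for 4 of the loci, because their starts range from the most open of the 9 genes to starts without a peak. RefSeq (GRCm38.p6, the assembly that mm10 names) listed 12 starts for 8 of the 9 genes. Peaks lay over the 300-base window of 7 starts (250 bases before to 50 after, called a start window here), and no peak lay over the windows of the other 5. Ahr had no entry. The 250 bases before the start are printed 5′ to 3′. Capitals mark matches, on either strand, to 6 motifs. These were TGTGGT for RUNX factors, AGATAA for GATA factors, AGGTGTGA for T-box factors, AGGTCA for nuclear receptors, TGCGTG for the xenobiotic response core and the palindrome TTCNNNGAA of BCL6 and STAT factors. No motif contains another. The bases before the outer and inner starts of Runx3 are chr4:135120395-135120644 and chr4:135152295-135152544 (plus strand), and those of Runx1 are chr16:92826075-92826324 and chr16:92697330-92697579 (minus strand). Those of the outer and inner Bcl6 starts are chr16:23988853-23989102 and chr16:23981284-23981533, and those of the Tbx21 start chr11:97115332-97115581 (minus strand).
Runx3 outer start: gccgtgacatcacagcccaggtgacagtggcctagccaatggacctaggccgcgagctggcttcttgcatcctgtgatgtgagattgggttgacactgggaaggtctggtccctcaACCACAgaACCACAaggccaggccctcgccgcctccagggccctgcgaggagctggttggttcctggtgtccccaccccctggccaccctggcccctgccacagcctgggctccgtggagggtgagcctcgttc
Runx3 inner start: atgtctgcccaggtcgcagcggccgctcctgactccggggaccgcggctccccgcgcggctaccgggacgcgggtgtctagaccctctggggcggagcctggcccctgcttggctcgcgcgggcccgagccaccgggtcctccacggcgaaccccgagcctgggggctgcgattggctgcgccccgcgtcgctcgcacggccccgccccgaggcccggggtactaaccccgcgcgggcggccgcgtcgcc
Runx1 outer start: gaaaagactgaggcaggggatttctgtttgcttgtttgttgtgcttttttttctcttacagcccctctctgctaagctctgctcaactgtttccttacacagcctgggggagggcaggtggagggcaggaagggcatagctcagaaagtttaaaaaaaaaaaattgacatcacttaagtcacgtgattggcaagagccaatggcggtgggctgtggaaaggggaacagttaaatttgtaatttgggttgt
Runx1 inner start: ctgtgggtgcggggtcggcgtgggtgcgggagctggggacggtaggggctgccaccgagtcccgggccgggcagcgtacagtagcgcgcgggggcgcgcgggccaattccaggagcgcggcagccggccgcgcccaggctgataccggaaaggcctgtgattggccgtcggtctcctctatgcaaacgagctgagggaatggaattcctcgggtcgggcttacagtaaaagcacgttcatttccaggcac
Bcl6 outer start: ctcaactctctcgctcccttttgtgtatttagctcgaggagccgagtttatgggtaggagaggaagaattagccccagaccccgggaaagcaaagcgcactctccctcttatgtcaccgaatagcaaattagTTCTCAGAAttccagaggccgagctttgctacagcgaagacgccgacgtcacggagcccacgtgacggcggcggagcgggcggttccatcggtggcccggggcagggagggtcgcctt
Bcl6 inner start: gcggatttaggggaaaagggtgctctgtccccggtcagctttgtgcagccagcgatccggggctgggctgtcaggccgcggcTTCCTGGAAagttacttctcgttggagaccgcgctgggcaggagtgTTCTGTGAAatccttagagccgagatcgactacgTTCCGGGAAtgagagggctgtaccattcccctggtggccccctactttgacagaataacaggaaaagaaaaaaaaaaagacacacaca
Tbx21 start: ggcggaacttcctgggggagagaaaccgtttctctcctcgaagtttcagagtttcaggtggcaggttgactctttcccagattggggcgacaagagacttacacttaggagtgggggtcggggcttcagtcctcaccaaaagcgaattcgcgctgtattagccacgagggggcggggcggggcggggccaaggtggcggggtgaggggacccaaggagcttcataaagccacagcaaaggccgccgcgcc

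The outer Runx3 start, which lay under the most accessible start peak of the 9 genes, held 2 matches to the RUNX motif on the minus strand, at -134 to -129 and -126 to -121 from the start. Of all 32851 listed starts, 14.0% held at least 1 RUNX match in the same 250 bases. The inner Bcl6 start held 3 matches to the palindrome and the outer start 1, at -118 to -110. That palindrome was present before 7.02% of all starts, and STAT factors share it with BCL6. It was the inner start that had no peak. No motif of the 6 searched was found before either Runx1 start, the inner Runx3 start or the Tbx21 start. The share of all starts was 9.99% for GATA, 1.12% for T-box, 14.0% for the nuclear receptor motif and 6.87% for the xenobiotic response core. The outer Runx1 start had 45.6% G and C bases and its inner start 67.6%, and the outer Runx3 start had 65.2% and its inner start 78.8%.

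Of the 117 peaks, 87 had enough counts to be tested and 30 did not, among them both Tbx21 peaks and 18 peaks within genes in all. The untested peaks averaged 1.94 to 4.70 CPM, counts scaled to a common library size. By the quasi-likelihood test of edgeR, 0 of the 87 were called higher and 0 lower in KO at an adjusted p under 0.05, and limma-voom and DESeq2 also called 0. Over all 38041 tested peaks 33 passed, 0.0867%, of which those higher in KO made up 0.0473% and those lower 0.0394% of the tested peaks. An unadjusted p under 0.05 was reached by 6 of the 87 (6.9%), against 9.47% of all tested peaks, and by 3 without WT replicate 1. The Rora peak among the 6 had enough counts only in WT libraries, which favours a lower KO value. Without KO replicates 1 or 3 or WT replicate 1, 15, 16 and 18 peaks of the whole table passed the adjusted threshold. KO and WT ranges were apart at 5 of the 87 peaks (5.75%), against 9.36% of all tested peaks. All 5 were higher in KO and 0 lower, where 4.85% and 4.51% of all tested peaks stood apart in these directions. Among the 5, a weak Zbtb7b peak was tested only because its KO libraries had enough counts, which favours that direction. Among the 30 untested peaks, with few counts, KO was above all WT libraries at 1 and below them at 3. The share over all untested peaks of the table was not computed, so these counts have no background to be read against. Of the 87 log2 fold changes 45 were above 0, with a median of 0.022 and quartiles of -0.22 and 0.28, against -0.001, -0.25 and 0.20 over all tested peaks. In bulk libraries, a site open in fewer cells and a site less open in each cell cannot be told apart.

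Summed over all peaks of a gene, a test over 13288 genes called 46 sums (0.346%, with 0.0978% higher and 0.248% lower in KO) and 0 of these 9. Without KO replicates 3 or 1 or WT replicates 1, 4 or 3 it called 8, 12, 27, 27 and 30 of all genes. Of the 9 sums, 2 had an unadjusted p under 0.05, Tbx21 and Runx1, against 11.4% of all genes. The Tbx21 sum had enough counts to be tested only through its WT libraries, and such a choice favours sums lower in KO. KO and WT were apart at Tbx21, lower in KO, and at Zbtb7b, higher in KO, as they were for 9.71% of all gene sums, 5.08% with KO above and 4.63% with KO below.

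**Figure D1:**
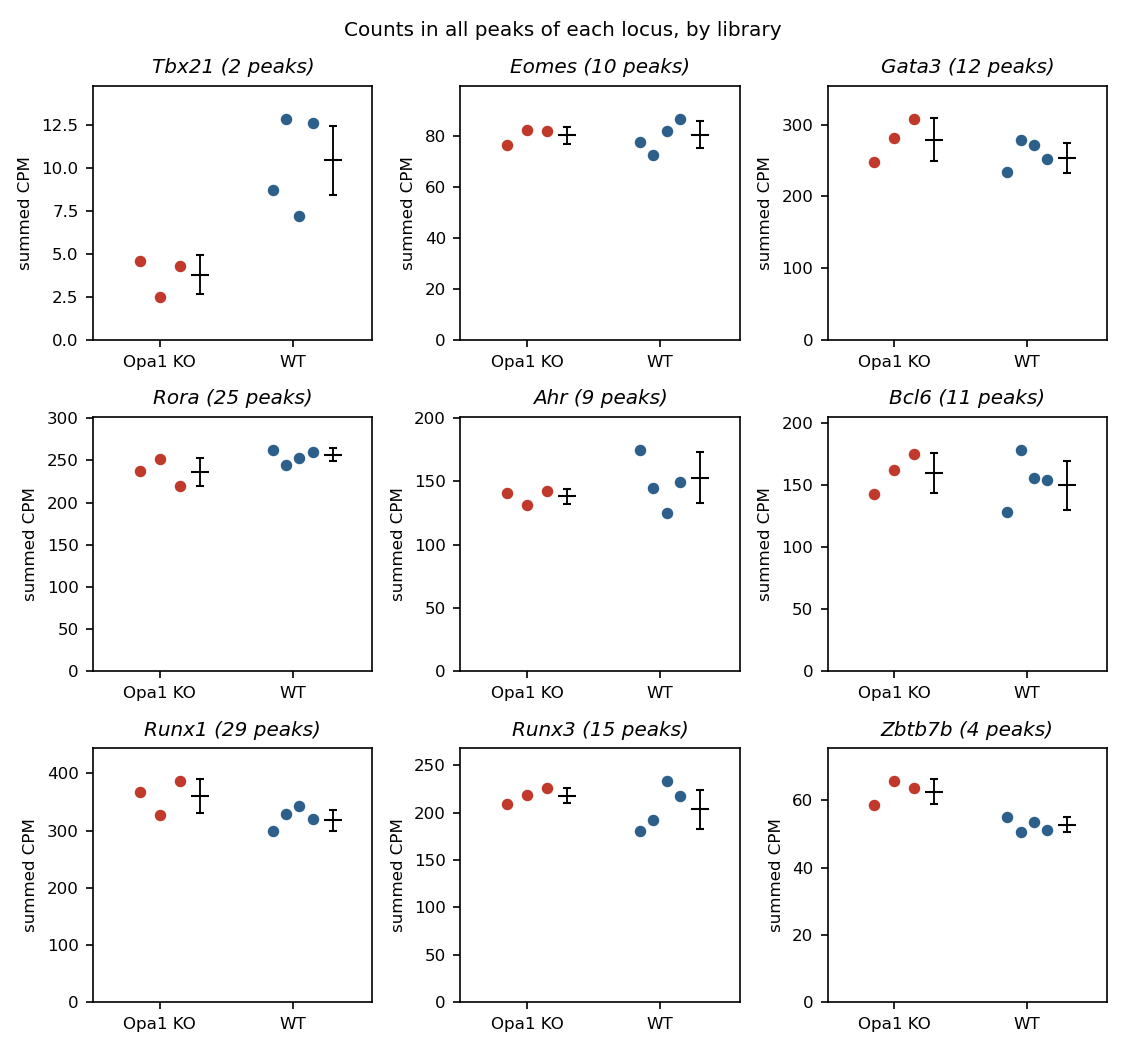
Summed CPM of all peaks of each locus, 1 dot per library, with the mean and SD to the right of each group (n = 3, WT replicates 2 and 3 counted once). The groups stand apart at Tbx21 and Zbtb7b and overlap at the other 7 genes.

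The loci differed in how open they were per kb of peak, which sets them on 1 scale of level. Gata3 was highest, at 59.0 CPM per kb over the 7 libraries, followed by Zbtb7b at 51.6, Runx3 at 47.8, Bcl6 at 44.0, Ahr at 43.4, Runx1 at 38.2, Rora at 28.7, Eomes at 25.8 and Tbx21 at 17.1. Neighbours in this order overlapped in their library ranges, apart from Runx1 (33.7 to 43.5 CPM per kb) and Rora (25.6 to 30.5). Peaks over start windows had a median level of 79.9 CPM per kb, those elsewhere in the genes 22.7 and those outside 24.7. Ahr had no listed start, so its peak at a gene end (98.4 CPM per kb) counted as elsewhere. The Gata3 peak centred at -1084 bp from its listed start did so too. Of the 9 genes' peaks 41.9% lay above 28.9 CPM per kb, the median over all peaks of the table, and 3 of the 117 were in its top 10%, above 103 CPM per kb. These 3 were a pair of peaks within Gata3, at 189 and 128 CPM per kb, and the peak over the outer start of Runx3, at 143 CPM per kb. The start peak of Zbtb7b, at 102 CPM per kb, came next.

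Tbx21, which encodes T-bet, had 2 weak peaks within the gene and none over its start. Its sum was 4.62, 2.53 and 4.31 CPM in KO replicates 1 to 3, against 8.72, 12.9, 7.23 and 12.6 CPM in WT replicates 1 to 4. Every KO library was below every WT library. These sums rest on 15, 4 and 8 counts in KO and on 18, 19, 12 and 24 in WT. Only the WT libraries brought the sum past the count filter, so its place among the tested sums depends on the higher group. Of the counts per peak in a library, zeros included, 78.0% to 86.3% were even, so a read pair appears to add 2 counts. The mean was 3.82 ± 1.13 CPM in KO and 10.5 ± 1.998 CPM in WT (SD, n = 3 each). WT replicates 2 and 3, averaged there, were the highest and lowest WT libraries, so that SD understates the spread of the 4. The log2 fold change was -1.37 (SE 0.46, 95% interval -2.27 to -0.48, edgeR), and it did not pass adjustment over all genes (adjusted p = 0.161). Of its peaks, the one from 97104218 to 97104448 on chromosome 11 had 2.16, 2.53 and 3.24 CPM in KO and 4.84, 3.38, 4.82 and 7.38 CPM in WT, without overlap. The one from 97101825 to 97102038 had 2.46, 0 and 1.08 CPM in KO against 3.88, 9.48, 2.41 and 5.27 CPM in WT, where KO replicate 1 exceeded WT replicate 3.

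Eomes, the T-box factor of cytotoxic T cells and NK cells, had 10 peaks, of which 8 lay outside the gene. The summed level was 76.4, 82.2 and 82.0 CPM in KO and 77.5, 72.4, 81.9 and 86.4 CPM in WT, so the KO values fell inside the WT range. The log2 fold change was -0.01 (95% interval -0.26 to 0.25, adjusted p = 0.996). Its most accessible peak lay 81255 bp before the gene (chromosome 9, 118396359 to 118396931), with 29.1 ± 2.60 CPM in KO and 25.6 ± 1.33 CPM in WT (SD, n = 3 each, log2 fold change 0.20, SE 0.21, adjusted p = 0.835). No peak lay over the start window of Eomes, and the 2 peaks within the gene were not tested. Of the 5 tested peaks, 1 was above 0 and 4 below.

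Gata3, which encodes the Th2 factor and is also used by Treg cells of tissues, had 12 peaks, 6 of them within the gene. Its sum was 248, 282 and 307 CPM in KO and 234, 278, 272 and 252 CPM in WT, and the groups overlapped (log2 fold change 0.09, 95% interval -0.06 to 0.25, adjusted p = 0.724). The most accessible peak of the locus (chromosome 2, 9879517 to 9879851), centred at -1084 bp from the listed start, had 54.2, 66.4 and 65.8 CPM in KO and 57.2, 90.7, 56.6 and 50.6 CPM in WT. WT replicate 2 alone reached 90.7 CPM. The fit gave a log2 fold change of -0.04 (SE 0.15), and 0.16 without WT replicate 2. The peak over the start window (9878483 to 9878773) had 25.4 ± 6.15 CPM in KO and 21.5 ± 8.43 CPM in WT (SD, n = 3 each).

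Farther into Gata3, a pair of peaks had the smallest p values of the locus, both with higher values in KO and neither past the adjusted threshold. The peak from 9867146 to 9867811, 11121 bp downstream of the listed start, had 39.4, 64.5 and 48.5 CPM in KO and 38.8, 39.9, 32.5 and 33.2 CPM in WT. KO replicate 1 lay within the WT range there (log2 fold change 0.46, SE 0.18, adjusted p = 0.376). Without KO replicate 2, the highest library, the log2 fold change was 0.28. The peak from 9871251 to 9871566 had 29.9, 29.1 and 28.0 CPM in KO and 12.6, 16.2, 24.7 and 25.3 CPM in WT. All KO libraries were above all WT libraries at this peak (log2 fold change 0.56, SE 0.24, adjusted p = 0.436). The 4 tested peaks outside the gene had log2 fold changes between -0.26 and 0.18. Between these 2 intragenic peaks and the start, the peak from 9875814 to 9876253 had 56.6 ± 5.47 CPM in KO and 53.0 ± 9.34 CPM in WT (SD, n = 3 each), a log2 fold change of 0.03 (SE 0.15).

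Rora, a nuclear receptor of Th17 cells and innate lymphoid cells, spans 734843 bp, and all of its 25 peaks lay inside the gene. None was over its listed start. The nearest tested peak lay 230827 bp downstream of it. The sum was 237, 252 and 220 CPM in KO and 262, 244, 252 and 260 CPM in WT (log2 fold change -0.12, 95% interval -0.28 to 0.04, adjusted p = 0.603). KO replicate 2 fell inside the WT range, while KO replicates 1 and 3 were below it. Its most accessible peak (chromosome 9, 69034223 to 69034969), 380810 bp into the gene, had 45.9, 70.1 and 43.1 CPM in KO and 58.1, 72.4, 65.0 and 58.5 CPM in WT. KO replicate 2 lay inside the WT range there, and the other KO libraries were lower than every WT library (log2 fold change -0.28, SE 0.16, adjusted p = 0.589). Leaving out KO replicate 2 gave -0.49, leaving out KO replicate 1 gave -0.17, and leaving out KO replicate 3 gave -0.16. The smallest p of the locus was at a weak peak from 69314498 to 69314853, with 2.46, 5.06 and 2.16 CPM in KO and 7.75, 3.38, 9.63 and 7.38 CPM in WT (log2 fold change -1.18, SE 0.56, adjusted p = 0.492). That peak passed the count filter only through WT replicates 1, 3 and 4, which favours a lower KO value. Of the 17 tested Rora peaks 7 were above 0 and 10 below.

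Ahr, the ligand-activated aryl hydrocarbon receptor, had 9 peaks, all tested. Its summed level was 140, 131 and 142 CPM in KO and 174, 145, 125 and 149 CPM in WT, where KO lay within the WT range (log2 fold change -0.11, 95% interval -0.31 to 0.09, adjusted p = 0.750). The peak over the end of the gene at its higher coordinate (chromosome 12, 35534873 to 35535275) was the most accessible, with 45.0, 34.1 and 38.8 CPM in KO and 45.5, 43.3, 33.1 and 36.9 CPM in WT. Its log2 fold change was 0.00 (95% interval -0.35 to 0.36). The smallest p of the locus was at the peak from 35534068 to 35534340, with 7.70, 12.6 and 7.55 CPM in KO against 14.5, 12.9, 16.3 and 7.90 CPM in WT (log2 fold change -0.50, SE 0.35, adjusted p = 0.698). Of the 9 tested peaks 3 were above 0 and 6 below.

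Bcl6, the repressor that drives follicular helper cells, had 11 peaks, 8 of them outside the gene. Its sum was 143, 162 and 175 CPM in KO and 128, 178, 155 and 154 CPM in WT, and the ranges overlapped (log2 fold change 0.04, 95% interval -0.15 to 0.24, adjusted p = 0.935). The peak over the outer start (chromosome 16, 23988509 to 23989118) had 33.6, 35.4 and 35.6 CPM in KO and 19.4, 48.1, 23.5 and 25.3 CPM in WT. The KO libraries were close together and WT replicate 2 was above all of them (log2 fold change 0.29, SE 0.22, adjusted p = 0.730). The most accessible Bcl6 peak lay 8284 bp upstream of the gene (23997150 to 23997711), with 41.0 ± 5.87 CPM in KO and 45.0 ± 5.29 CPM in WT (SD, n = 3 each, log2 fold change -0.16, SE 0.17, adjusted p = 0.831). Farther out, 62027 bp from the gene, the peak from 24050893 to 24051231 had 9.24, 13.9 and 11.9 CPM in KO and 3.88, 5.42, 9.63 and 5.27 CPM in WT. WT replicate 3 exceeded KO replicate 1 there (log2 fold change 0.93, SE 0.40, adjusted p = 0.437).

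**Figure D2:**
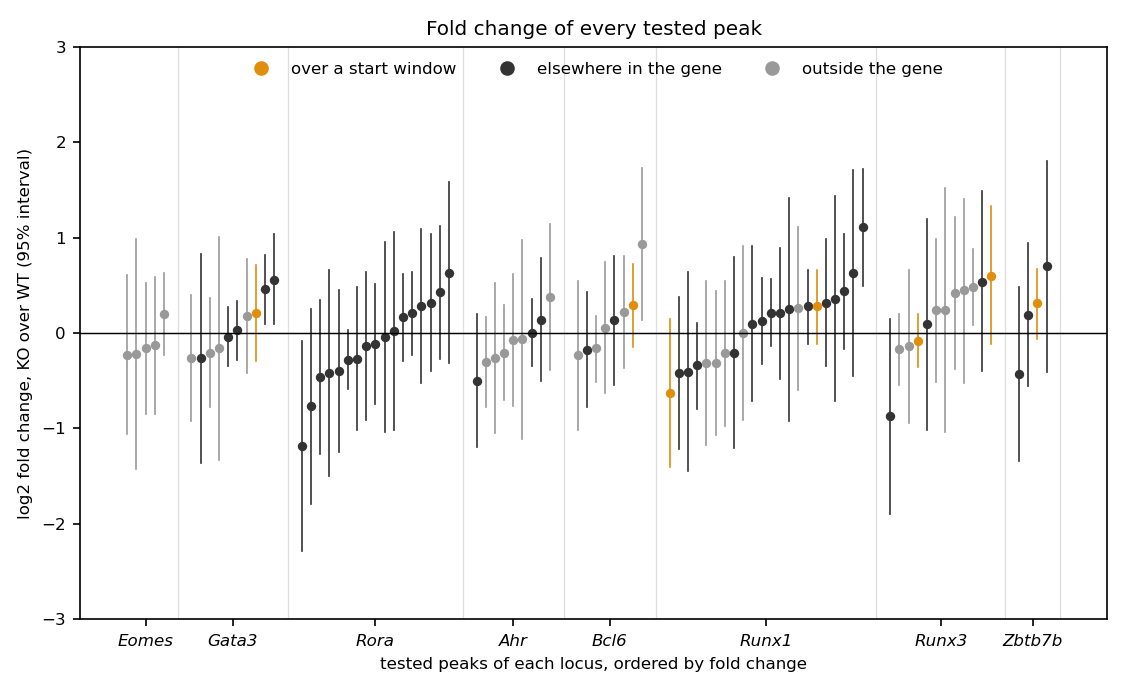
Log2 fold change (KO over WT) of the 87 tested peaks with 95% intervals, grouped by gene, ordered by size within a gene, and shaded by position. Most intervals cross 0, and the highest point is the Runx1 peak at 1.11. Tbx21 had no tested peak.

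Runx1, a Cbfβ partner that acts with FOXP3 in Treg cells, had the most peaks of the 9 genes, 29, of which 22 overlapped the gene. Its sum was 368, 327 and 386 CPM in KO and 299, 328, 343 and 320 CPM in WT. KO replicates 1 and 3 were above every WT library and KO replicate 2 lay inside the WT range. The log2 fold change was 0.16 (SE 0.07, 95% interval 0.02 to 0.30, adjusted p = 0.370). Of the 22 tested peaks 13 were above 0 and 9 below.

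The smallest p of all 87 tested peaks was at a Runx1 peak 181184 bp into the gene (chromosome 16, 92644708 to 92645072), between the inner start and the 3′ end. It had 18.5, 20.9 and 31.3 CPM in KO and 4.84, 6.77, 18.1 and 13.7 CPM in WT, so all KO libraries were above all WT libraries, KO replicate 1 by a small margin. The mean was 23.5 ± 6.81 CPM in KO and 10.3 ± 4.79 CPM in WT (SD, n = 3 each). Averaging WT replicates 2 and 3, which differed widely here, makes that WT SD smaller than over all 4 libraries. The log2 fold change was 1.11 (SE 0.31, 95% interval 0.49 to 1.72, edgeR). It did not pass adjustment over all peaks (adjusted p = 0.167). Leaving out libraries moved it between 0.83 without WT replicate 1 and 1.45 without WT replicate 3. Chromosome 16 held 13 of the 33 called peaks of the table among its 1583 tested peaks, against 20 among the 36458 tested outside it. Within 5 Mb of Runx1, 3 peaks were called and 12.8% of 282 tested peaks had an unadjusted p under 0.05. The same share was 11.2% over all of chromosome 16 and 9.39% outside it. The part of this in the Runx1 values was not tested. Around Bcl6, on the same chromosome, that share was 7.39% of 176 peaks, with 0 called. Without both genes, 4 of 57 tested peaks had an unadjusted p under 0.05, 7.02%.

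Runx1 and Runx3 are each transcribed from an outer and an inner start, and the outer one was the more open at both genes. Over the outer Runx1 start (92825910 to 92826351) the peak had 33.6, 41.7 and 42.6 CPM in KO and 24.2, 33.2, 36.7 and 34.8 CPM in WT (log2 fold change 0.28, SE 0.19, adjusted p = 0.699). Over the inner start (92697273 to 92697584) it had 9.86, 2.53 and 7.55 CPM in KO and 10.7, 16.2, 7.83 and 9.48 CPM in WT (log2 fold change -0.63, SE 0.39, adjusted p = 0.644). KO replicate 1 fell inside the WT range at both. Of the counts in both start peaks of Runx1, the outer one held 77.3%, 94.3% and 84.9% in KO and 69.4%, 67.1%, 82.4% and 78.6% in WT, and the groups overlapped. With counts halved, so that a read pair counts once, their 95% Wilson intervals were 66.5% to 85.6%, 81.4% to 98.4% and 72.3% to 92.6% in KO and reached from 51.5% to 90.8% across the WT libraries. These intervals cover counting error within each library only, not the spread between libraries. PCR copies were not told apart by molecular tags, so the intervals may be too narrow even for counting error.

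Between these starts, the peak with its centre 24302 bp downstream of the outer start (92801554 to 92801989) had 50.8, 34.1 and 37.2 CPM in KO and 30.5, 37.2, 44.6 and 26.3 CPM in WT (log2 fold change 0.28, SE 0.19, adjusted p = 0.696). An enhancer of blood stem cells is known in this first stretch of Runx1, and whether the peak is that element was not tested. The Runx1 peak with the most CPM, though not the most per kb of peak, lay farther in (92620707 to 92621366) and had 46.0 ± 11.5 CPM in KO and 40.6 ± 4.66 CPM in WT (SD, n = 3 each, log2 fold change 0.21, adjusted p = 0.764). The WT libraries ranged there from 29.8 to 45.5 CPM, with the lowest, WT replicate 2, averaged with WT replicate 3 in that SD.

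**Figure D3:**
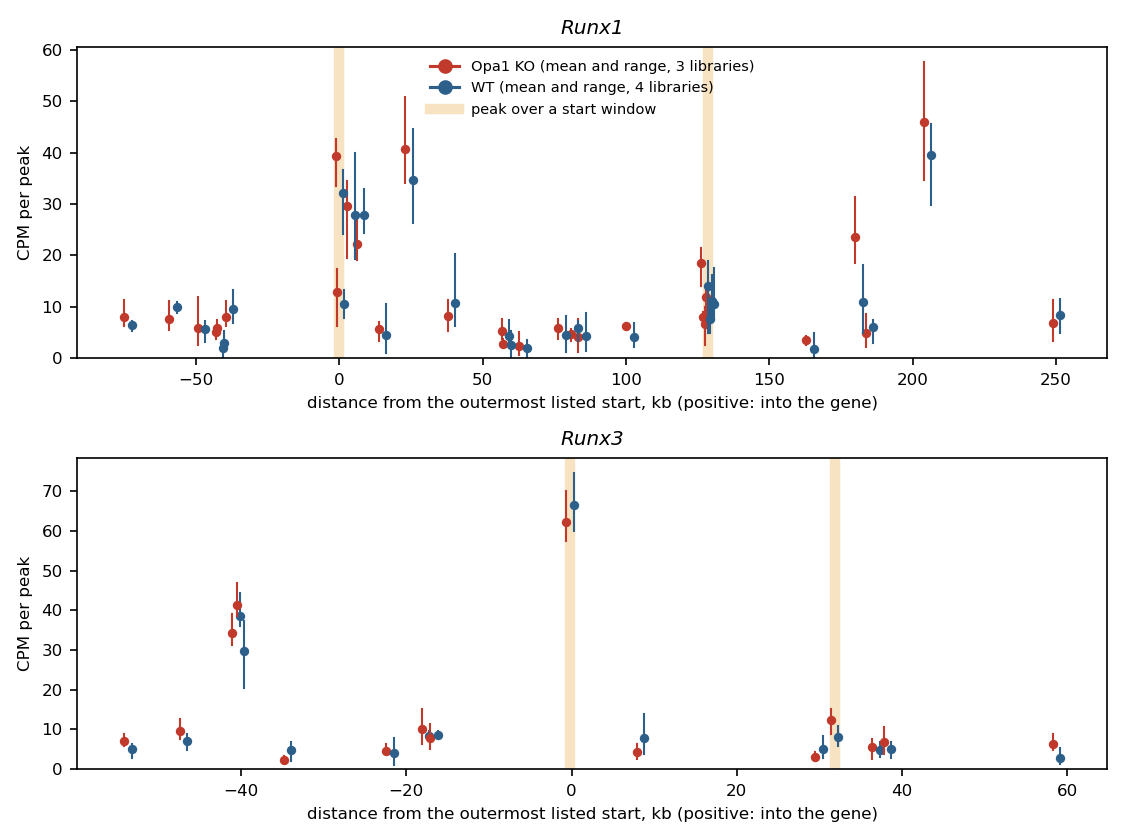
CPM of each peak at Runx1 and Runx3 against the distance of its centre from the outermost listed start in kb, with KO and WT drawn side by side around the true position. Points are means and lines ranges of the 3 KO and 4 WT libraries, and shading marks peaks over start windows. The outer start peaks exceed the inner ones in both groups, and at Runx1 the peak from 92644708 to 92645072 has all KO libraries above all WT libraries.

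Runx3, which acts in CD8 T cells and Th1 cells and silences Cd4, had 15 peaks. Its sum was 210, 219 and 225 CPM in KO and 180, 192, 233 and 218 CPM in WT, so the KO values lay within the WT range (log2 fold change 0.07, 95% interval -0.10 to 0.24, adjusted p = 0.832). The peak over its outer start, printed above with its RUNX matches (chromosome 4, 135120253 to 135120707), had 69.9, 57.5 and 59.3 CPM in KO and 60.1, 60.9, 74.7 and 70.6 CPM in WT. Its log2 fold change was -0.08 (SE 0.14, 95% interval -0.36 to 0.20). Over the inner start (135152348 to 135152677) the peak had 8.94, 13.3 and 15.1 CPM in KO and 5.81, 10.8, 8.43 and 7.38 CPM in WT (log2 fold change 0.60, SE 0.36, adjusted p = 0.630). The outer peak held 88.7%, 81.2% and 79.7% of the counts of both Runx3 start peaks in KO and 91.2%, 84.9%, 89.9% and 90.5% in WT, with overlap.

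Upstream of Runx3, a pair of neighbouring peaks had log2 fold changes of opposite sign. The peak 39840 bp away (135080399 to 135080805) had 38.5, 38.6 and 46.9 CPM in KO and 20.3, 25.05, 37.3 and 35.8 CPM in WT, and every KO library was above every WT library. Its log2 fold change was 0.48 (SE 0.20, adjusted p = 0.423). The peak 40422 bp away (135079823 to 135080223) had 32.7, 39.2 and 31.3 CPM in KO and 36.8, 36.6, 36.1 and 44.3 CPM in WT (log2 fold change -0.17, SE 0.19, adjusted p = 0.833). The 2 intervals are neighbours, and the difference between them was not tested.

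Zbtb7b had 4 peaks, all within the gene, and 63.8% of its CPM lay in the peak over its outer start window. The sum was 58.5, 65.7 and 63.6 CPM in KO and 55.2, 50.8, 53.6 and 51.1 CPM in WT. All KO libraries were above all WT libraries, with 62.6 ± 3.70 CPM in KO and 52.8 ± 2.13 CPM in WT (SD, n = 3 each). The log2 fold change was 0.23 (SE 0.15, 95% interval -0.07 to 0.53, adjusted p = 0.605). The start-window peak (chromosome 3, 89393546 to 89393903) had 40.7, 38.6 and 43.1 CPM in KO and 35.8, 30.5, 34.9 and 30.6 CPM in WT, also without overlap (log2 fold change 0.31, SE 0.18, adjusted p = 0.629). A weak peak from 89382148 to 89382375 had 5.55, 6.32 and 6.47 CPM in KO and 2.91, 5.42, 4.22 and 2.63 CPM in WT (log2 fold change 0.70, SE 0.55, adjusted p = 0.749). It would not have passed the count filter without its KO libraries, as only WT replicate 2 of the WT libraries reached the minimum. Such a choice favours a higher KO value. The inner start, with 1 RUNX match at -89 to -84, had no peak.

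**Figure D4:**
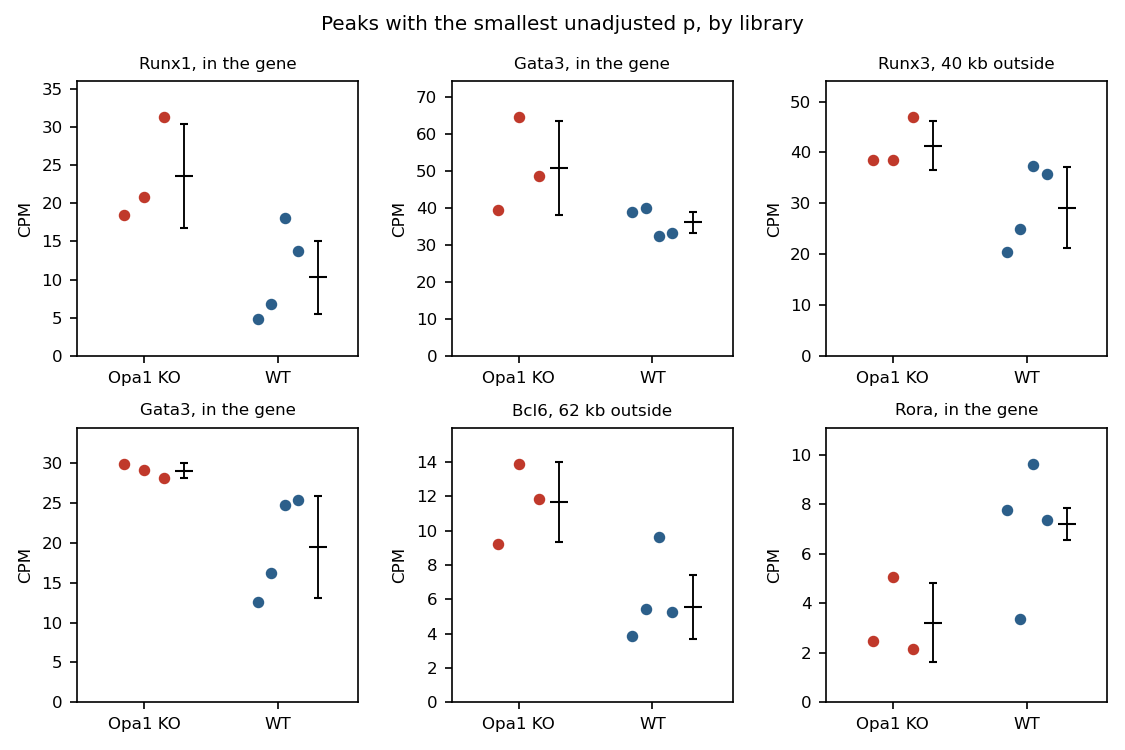
CPM by library at the 6 tested peaks with an unadjusted p under 0.05, with the mean and SD to the right of each group (n = 3, WT replicates 2 and 3 counted once). KO is above WT without overlap at the Runx1 and Runx3 peaks and at 1 of the Gata3 peaks, and the groups overlap at the other 3. None passed the adjusted threshold. The Rora peak had enough counts to be tested only through WT libraries.

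Genes that act with these factors were grouped in 6 lists, and 0 of their tested peaks were called. None of the 91 tested peaks of 16 Th1 partners of T-bet and Eomes was called, and 50 had a log2 fold change above 0 (median 0.083, against -0.001 over all peaks). Its smallest p was within Il18r1, a receptor subunit for IL-18 (chromosome 1, 40475668 to 40476082), with 36.7, 46.8 and 51.2 CPM in KO and 33.4, 29.8, 21.7 and 28.5 CPM in WT (log2 fold change 0.64, adjusted p = 0.236). Th2 partners of GATA3 had 43 tested peaks, 0 of them called, and 15 log2 fold changes lay above 0 (median -0.145). There the smallest p was at Gfi1, a repressor that supports Th2 cell growth (chromosome 5, 107725767 to 107726235), with 25.9, 29.1 and 23.7 CPM in KO and 46.5, 46.0, 35.5 and 31.1 CPM in WT (log2 fold change -0.60, SE 0.20, adjusted p = 0.282). At both the Il18r1 and the Gfi1 peak the KO and WT ranges were apart.

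In the Th17 list 0 of 71 peaks were called, with 37 above 0 and a median of 0.014. Its smallest p was at the clock repressor gene Nr1d2 (131 ± 10.6 CPM in KO and 105 ± 10.1 CPM in WT, SD, n = 3 each, log2 fold change 0.29, adjusted p = 0.349). The Tfh list had 0 calls in 161 peaks, with 78 above 0 and a median of -0.020, and its smallest p lay 16216 bp from Tcf7, a regulator of resting and follicular helper T cells (adjusted p = 0.251). Among the partners of Runx1, Runx3 and Zbtb7b, 0 of 190 peaks were called, 95 were above 0 and the median was -0.004. The smallest p there was within Tox, a factor of CD4 lineage development (log2 fold change 0.36, adjusted p = 0.284).

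For the aryl hydrocarbon receptor partners, 44 peaks were tested and 0 called, the log2 fold changes had a median of -0.104, and 16 of them lay above 0. Without WT replicate 2, and with limma-voom, 1 peak of this list was called.

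Markers of the sorted cells were accessible. All Treg markers listed had peaks (Foxp3, Il2ra, Ctla4, Ikzf2 and Tnfrsf18), which summed to 1530 to 1633 CPM in KO and 1495 to 1599 CPM in WT. No peak was assigned to the B cell markers Cd79a and Ms4a1, the myeloid markers Lyz2 and Csf1r or the NK marker Ncr1. Pax5 had 6.47 to 12.6 CPM in KO and 8.80 to 19.4 CPM in WT, and Itgam and Spi1 together 41.1 to 51.2 CPM in KO and 50.8 to 60.2 CPM in WT. Both Cd8a and Cd8b1 had peaks, 44.7 to 65.3 CPM in KO and 45.8 to 63.0 CPM in WT. Klrb1c, the NK cell marker with peaks, had 159 to 162 CPM in KO and 119 to 169 CPM in WT. The mean Itgam, Spi1 and Pax5 sums were lower in KO than in WT with overlapping ranges, and the Tbx21 sums were lower in KO. The means of Klrb1c (160 CPM in KO, 144 CPM in WT) and Cd8b1 (40.5 and 36.3 CPM) were higher in KO, also with overlap, and those of Cd8a were 15.7 and 15.6 CPM. The part of other cell types in the Tbx21 values was not tested.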

How the data were processed

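Counts of reads per peak for 7 libraries were deposited by the authors as 1 table of 50213 peaks with mm10 positions. Per the submitters' processing notes, the tools included MACS2 2.1.1, BWA 0.7.16, bedtools 2.25.0, SAMtools 1.9, Trimmomatic 0.36 and Picard 2.9.4. Their settings, the merging of peaks and any shift for the transposase are not given in the sources used, nor whether starts count from 0 or 1. Positions are printed as deposited. Peaks were assigned to RefSeq protein-coding genes (GRCm38.p6): 32474 peaks overlapped a gene and 14995 lay within 100000 bp of the nearest. That table holds no exons, so exons and introns were not assigned.

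KO was compared with WT over all peaks, and over counts summed per gene, by the robust quasi-likelihood test of edgeR 4.0.16 (R 4.3.3) with TMM scaling and Benjamini-Hochberg adjustment. The filter filterByExpr (count minimum 10, total 15) kept 38041 peaks and 13288 of 14280 genes. CPM uses library totals scaled by TMM. On simulated counts for KO against WT, the peak test over 35963 peaks recovered 47% of 2-fold and 88% of 4-fold changes, and the gene test over 13128 genes 80% and 97%. Alternatives were other scalings and filters, DESeq2 1.42.0, limma-voom (limma 3.58.1), halved counts, summing WT replicates 2 and 3, a replicate block, other windows and leaving out each library. The members and gene lists were chosen with earlier results of these data known. Named peaks are, per gene, the one with the highest mean CPM (called the most accessible), the one with the smallest p and those with an unadjusted p under 0.05, and per list the one with the smallest p, which for the Ahr partners is not reported here. The start-window peaks, the other peaks named and the shares of start peaks were chosen after their values were seen. A chi-square test of halved counts between WT replicates 2 and 3 gave 0.111 as its p over 36418 peaks and 0.0385 over the 11332 most abundant, where the next closest pair, WT replicates 3 and 4, gave 0.00137 and 0.00741.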

Additional observations from a re-analysis of the deposited data

Results flagged for a closer look

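In 5 of the 96 peaks and sums examined, 1 WT library stood far from the other 3, where chance alone marks about 1 in 20 groups. The Gata3 peak starting at 9879517 had 54.2 to 66.4 CPM in KO, and 90.7 CPM in WT replicate 2 against 50.6 to 57.2 CPM in the other WT libraries. An Ahr peak starting at 35562815 had 18.9 to 23.4 CPM in KO, and 39.7 CPM in WT replicate 1 against 19.0 to 19.6 CPM in the others. Of the Runx1 peaks, the one starting at 92641114 had 2.16 to 8.63 CPM in KO, and 3.01 CPM in WT replicate 3 against 6.77 to 7.38 CPM in the others. The Runx1 peak starting at 92786811 had 5.24 to 11.4 CPM in KO, and 20.3 CPM in WT replicate 2 against 6.32 to 8.43 CPM in the others. The Runx3 peak starting at 135079823 had 31.3 to 39.2 CPM in KO, and 44.3 CPM in WT replicate 4 against 36.1 to 36.8 CPM in the others.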

How the results depend on the processing

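At the 9 genes, 0 peaks and 0 gene sums were called in the alternatives run. The smallest adjusted p of a named result was 0.0643, for the Runx1 peak starting at 92644708 without WT replicate 3, whose adjusted p ran up to 0.59 over the alternatives. The Tbx21 sum had log2 fold changes of -1.56 to -1.17 and adjusted p of 0.129 to 0.389, and could not be fitted in 3 settings whose filters removed it. Of 425 values of 24 named results, 405 kept their direction. For the Gata3 peak starting at 9879517, the log2 fold change was 0.01 with WT replicates 2 and 3 summed and -0.14 to 0.16 when leaving out a library. That of the Ahr peak starting at 35534873 was -0.02 with total counts, -0.04 with loess offsets, -0.0 with DESeq2, -0.02 when peaks needed a mean count of 20, -0.01 with halved counts, -0.0 with the WT pair summed, -0.04 with the replicate block and -0.12 to 0.1 when leaving out a library. The Eomes sum gave 0.04 with the replicate block and -0.05 to 0.03 when leaving out a library, the Bcl6 sum -0.04 to 0.13, and the Runx3 sum -0.06 over overlapping peaks only. Leaving out a library also moved, by over 1.5 times, the uncalled values of the most accessible peaks of Eomes (0.13 to 0.26), Bcl6 (-0.27 to -0.09), Runx1 (0.05 to 0.36) and Runx3 (-0.18 to -0.02) and the sums of Gata3 (0.02 to 0.18), Rora (-0.17 to -0.07), Ahr (-0.19 to -0.02) and Runx3 (0.01 to 0.14). Peaks with an unadjusted p under 0.05 at these genes numbered 3 to 7 when leaving out a library.

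Over all peaks, against 33 calls, DESeq2 and limma-voom each made 55, a mean count of at least 20 gave 60, halved counts 82, the replicate block 13 and leaving out a library 15 to 43. Over all gene sums, against 46, DESeq2 made 18, halved counts 82, the replicate block 23 and leaving out a library 8 to 67. The Ahr partners had 1 call with limma-voom and with halved counts, and 0 to 1 when leaving out a library. The causes were not tested. Same-numbered KO and WT libraries were not more alike than others (correlations of 0.011, -0.012 and 0.004, with up to 0.029 for other pairs). Counting noise makes up most of the spread between libraries of a genotype, so these correlations could not exclude a pairing. The replicate block changed no call at the 9 genes. Depth limits the weak peaks most: 30 of the 117 were not tested.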
